A study of Rattus norvegicus with 8 samples.

Results

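The IgLON family of neural adhesion molecules was followed in sorted cells of the newborn rat retina that carried a Klf4 plasmid or a control plasmid. The 5 rat genes of the family, Ntm, Lsamp, Opcml, Negr1 and Iglon5, were found through the RefSeq transcript assigned to each array probe. They were covered by 7 of the 45598 gene probes and make up 5 of the 16581 gene symbols that the probes could be given. Ntm had 1 probe, Lsamp 2, Opcml 1, Negr1 2 and Iglon5 1. The family was selected on measured values of this same comparison, because the lower Ntm signal in Klf4 cells was among the most stable differences in it. The Ntm values are therefore given as a description with no test. The signals of the other members did not choose the family, and their tests are given.

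There were 4 Klf4 samples and 4 control samples, numbered 2 to 5 in each group. In both groups, Lister hooded rat retinas of postnatal day 0 were electroporated in vitro with 25 V pulses of 50 ms, kept as explants for 39 hours and then dispersed, and RNA came from the sorted GFP-positive cells. The groups thus shared the electroporation, the culture and the sort, and differed in the plasmid. The sources used here give neither the promoter of the plasmids nor the number of retinas behind a sample. They also do not say whether samples came from separate animals, so a p-value here rests on a spread between samples that may be technical. The sorted cells are a mixture of retinal types, in which fewer cells of a type and less RNA per cell cannot be told apart.

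IgLON proteins are small cell surface glycoproteins made of immunoglobulin domains and tethered to the outer leaflet of the membrane by a glycosylphosphatidylinositol (GPI) anchor. They bind themselves and each other between neighbouring neurons, and they are known for roles in neurite outgrowth, axon sorting and synapse formation. Metalloproteinases can cut them from the surface, and Negr1 is known to act together with a fibroblast growth factor receptor. Klf4, the transfected factor, is a zinc finger transcription factor that recognises CACCC and other GC-rich elements.

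Promoter windows of 300 bases, running from 250 before to 50 after the annotated start, were taken from RefSeq on the GRCr8 build for 4 of the 5 genes, as 6 windows. The Ntm window lies at chr8:36062501-36062800 on the minus strand and the Negr1 window at chr2:248283226-248283525 on the plus strand. The Ntm window is shown because the Ntm signal was far lower in Klf4 cells. The Negr1 window is shown because it holds the most CACCC of the 6 windows, with none available for Opcml. Negr1 did not pass the test, which does not show that its signal stayed the same. Whether CACCC in a window goes with the difference was not tested. Capitals mark CACCC and GGGCGG on either strand, where GGGTG and CCGCCC are the same letters on the other strand.
Ntm: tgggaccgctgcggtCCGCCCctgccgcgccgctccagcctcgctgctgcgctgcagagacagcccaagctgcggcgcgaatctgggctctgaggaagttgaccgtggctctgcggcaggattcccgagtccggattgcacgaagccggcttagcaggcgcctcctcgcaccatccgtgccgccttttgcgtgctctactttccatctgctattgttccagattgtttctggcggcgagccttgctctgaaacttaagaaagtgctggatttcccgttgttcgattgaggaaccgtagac
Negr1: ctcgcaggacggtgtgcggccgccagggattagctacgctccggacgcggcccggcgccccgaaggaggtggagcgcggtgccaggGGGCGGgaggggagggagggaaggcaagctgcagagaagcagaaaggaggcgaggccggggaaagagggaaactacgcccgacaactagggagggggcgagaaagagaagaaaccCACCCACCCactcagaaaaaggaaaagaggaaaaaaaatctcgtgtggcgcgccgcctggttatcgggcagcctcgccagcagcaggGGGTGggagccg
The Ntm window held no CACCC on either strand and 1 GGGCGG. The Negr1 window held 3 CACCC, of which 2 overlap by a base, and 1 GGGCGG. The 2 Lsamp windows held 0 and 1 CACCC, and the 2 Iglon5 windows, which overlap, held 1 each. GGGCGG was found 0 times in each Lsamp window, and 1 and 2 times in the Iglon5 windows. CACCC occurred in 54.87% of all 33469 rat promoter windows and GGGCGG in 33.06%. The longer form CCNCACCC, in 15.34% of windows, was absent from all 6. A match is a description of letters and not a site of binding, and no match says only that the letters are not in the window. By GC content the Ntm window, at 61.0%, was above 76.1% of all windows. The Negr1 window, at 65.7%, was above 85.1%, and the Iglon5 windows, at 72.0% and 73.3%, were above 94.1% and 95.4%. The Lsamp windows, at 54.3% and 56.7%, were above 58.2% and 65.1%.

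Signals below are on a normalised log2 scale, in which 0 is the 75th percentile of the gene probes on the same array. A difference is Klf4 minus control. Signals of different probes are not set against each other, since probes bind with different strength.

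Ntm encodes neurotrimin, which promotes or limits neurite growth depending on the neuron. Its signal was -1.65, -1.31, -2.07 and -1.68 in Klf4 samples 2 to 5, against 0.26, -0.22, -0.22 and 0.06 in control samples 2 to 5. Every Klf4 value lay below every control value, with a gap of more than 1 log2 unit between the groups. The means were -1.68 ± 0.31 in Klf4 cells and -0.03 ± 0.23 in control cells (SD, n = 4 each). The difference of the means was -1.65, so that the normalised Klf4 signal was 0.319 times that of the control. Before any scaling between arrays, the deposited intensities were 499, 564, 349 and 245 in Klf4 samples 2 to 5, against 1785, 1479, 1065 and 762 in control samples 2 to 5. The groups did not overlap on that scale either. The Ntm probe was well above background on all 8 arrays. Among the 29995 genes and unnamed probes that passed the filter on dim signals, Ntm had the 22nd lowest difference, and 0.07% of them lay lower. Its spread within groups, an SD of 0.28, exceeded that of 44.2% of these features, so the probe was neither unusually tight nor unusually loose. The arrays were read in 2 scans, with both arrays numbered 5 in the second. The difference was -1.62 in the first scan, with 3 arrays a group, and -1.74 in the second, with 1 array a group.

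**Figure D1:**
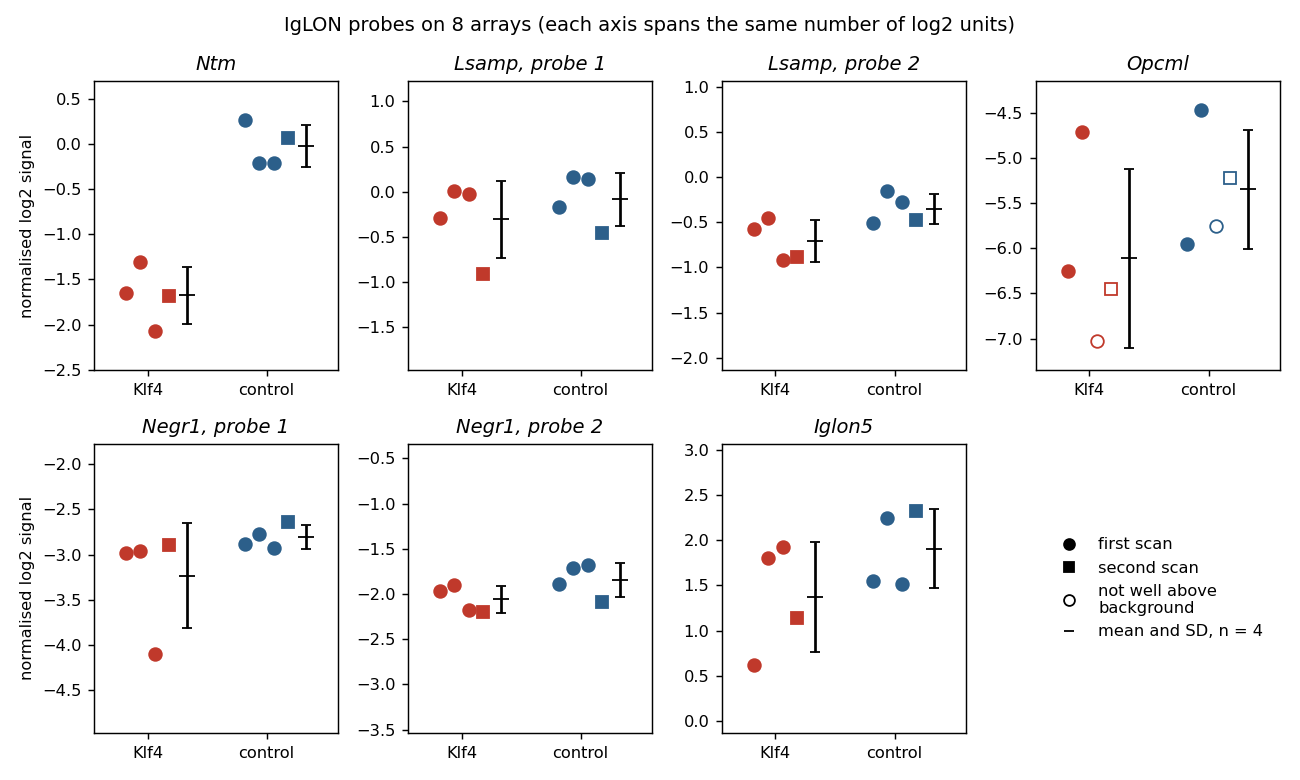
Normalised log2 signal (0 is the 75th percentile of gene probes on the array) of each IgLON probe in Klf4 samples (red, left) and control samples (blue, right), with mean and SD (n = 4) as bars. Circles are arrays of the first scan, squares of the second, and open symbols were not well above background. Only the Ntm panel has groups that do not overlap, with Klf4 values from -2.07 to -1.31 and control values from -0.22 to 0.26.

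Lsamp, which encodes the limbic system-associated membrane protein, a guidance and adhesion molecule of limbic neurons, had overlapping groups on both of its probes. The probe with the brighter signal read -0.29, 0.004, -0.02 and -0.91 in Klf4 samples 2 to 5, against -0.17, 0.16, 0.15 and -0.46 in control samples 2 to 5. On this probe the arrays numbered 5 were the lowest of each group. The difference was -0.22 (SE 0.24, 95% interval -0.77 to 0.32), with an adjusted p of 0.828 in the limma fit with Benjamini-Hochberg adjustment over all 29995 features. The second Lsamp probe read -0.57, -0.45, -0.92 and -0.88 in Klf4 samples 2 to 5, against -0.51, -0.15, -0.28 and -0.48 in control samples 2 to 5. Its difference of -0.35 (SE 0.16, 95% interval -0.72 to 0.01) did not pass either, with an adjusted p of 0.439 in limma when every probe was fitted on its own.

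Negr1, the neuronal growth regulator, was read by 2 probes. Probe 2, which stands for the gene as the brighter, read -1.97, -1.90, -2.17 and -2.19 in Klf4 samples 2 to 5, against -1.89, -1.72, -1.68 and -2.09 in control samples 2 to 5. Klf4 samples 2 and 3 lay within the control range and samples 4 and 5 below it. The difference was -0.21 (SE 0.14, 95% interval -0.54 to 0.11), with an adjusted p of 0.679 in limma. Probe 1 read -2.98, -2.96, -4.10 and -2.90 in Klf4 samples 2 to 5, against -2.88, -2.77, -2.93 and -2.64 in control samples 2 to 5. Klf4 sample 4 stood about 1 log2 unit below its group on that probe, and the other 7 arrays overlapped. The probe's difference was -0.43 (SE 0.27, 95% interval -1.05 to 0.19), with an adjusted p of 0.638 in limma with every probe on its own.

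Iglon5, the most recently named member and the target of autoantibodies in a human neurological disease, had overlapping groups. Its signal was 0.62, 1.80, 1.93 and 1.14 in Klf4 samples 2 to 5, against 1.55, 2.25, 1.51 and 2.32 in control samples 2 to 5. Klf4 samples 3 and 4 lay above the lowest control sample, and samples 2 and 5 below every control sample. The difference was -0.54 (SE 0.33, 95% interval -1.29 to 0.22), with an adjusted p of 0.639 in limma. Without both arrays numbered 4 it was -0.85, with an adjusted p of 0.394 in limma, and without Klf4 sample 2 it was -0.29.

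Opcml, which encodes the opioid-binding cell adhesion molecule and lies next to Ntm on chromosome 8, was dim. Its probe was well above background on samples 2 and 3 of each group and not on samples 4 and 5, so it did not pass the filter of 3 arrays in a group and was not tested. The deposited intensities were 20.5, 53.3, 11.2 and 9.0 in Klf4 samples 2 to 5, against 24.1, 77.4, 22.9 and 19.6 in control samples 2 to 5. The normalised means were -6.11 ± 0.99 in Klf4 cells and -5.35 ± 0.66 in control cells (SD, n = 4 each), with overlapping groups.

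None of the 3 members tested passed at an adjusted p of 0.05 in limma, and none had an unadjusted p under 0.05 (0.376 for Lsamp, 0.172 for Negr1 and 0.142 for Iglon5). Over all 29995 features, 0.47% were called lower in Klf4 cells and 3.21% higher. The 5 probes of these 3 genes had differences below 0, as did 61% of all features tested, whose median difference was -0.07. The 95% intervals reach down to -0.77 for Lsamp, to -1.05 and -0.54 for probes 1 and 2 of Negr1, and to -1.29 for Iglon5. A p that misses the threshold does not show that these genes stayed the same. Groups that did not overlap, with all Klf4 values lower, were found for 4.48% of all features.

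**Figure D2:**
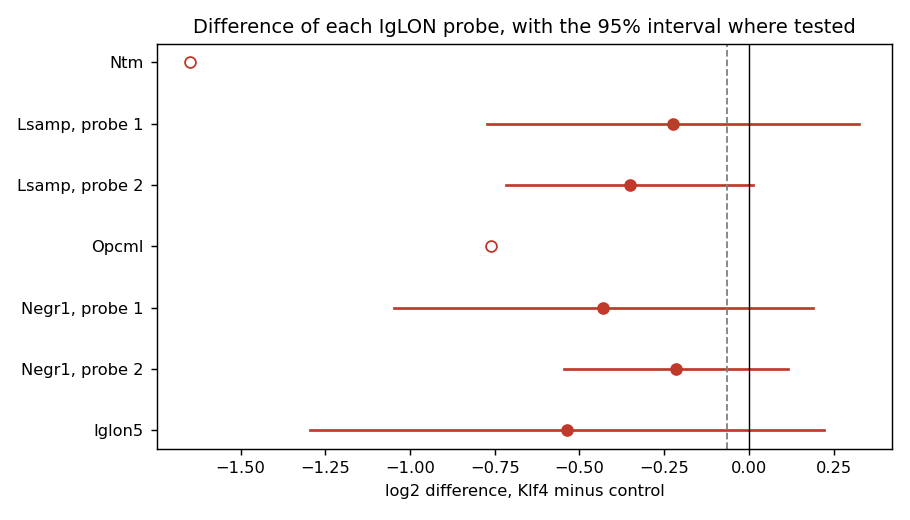
Log2 difference, Klf4 minus control, of each IgLON probe, with the 95% interval of the 5 probes tested (limma, n = 4 per group). The open points are differences of means with no test, for Ntm because it was selected on this difference and for Opcml because it was dim, the solid vertical line is 0 and the dashed line is the median of all features, -0.07. The intervals of the 5 probes tested include 0.

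The likeness of other genes to Ntm was measured as Pearson's r over the 8 arrays, for the 13501 other named genes. The groups differ in Ntm, so r over the 8 arrays holds the Klf4 difference as well as the spread within groups, and no p is given. The 5 most alike were Zfp148, a zinc finger transcription factor, at 0.99, F2, prothrombin, at 0.99, Sqstm1, an autophagy receptor, at 0.98, Ush1c, a scaffold protein of sensory cells, at 0.98, and Acaa1b, a peroxisomal enzyme of fatty acid breakdown, at 0.98. The F2 signal was -5.16, -4.90, -5.50 and -4.95 in Klf4 samples 2 to 5, against -3.93, -4.02, -4.18 and -3.94 in control samples 2 to 5, a difference of -1.11. Sqstm1 differed by only -0.14, at 3.18 to 3.28 in Klf4 samples and 3.35 to 3.42 in control samples. With the group means removed, the 5 most alike were Nr2c2ap at 0.98, Sqstm1 at 0.97, Shisa4 at 0.96, LOC102554959 at 0.94 and Stk32a, a kinase, at 0.94. Nr2c2ap and Shisa4 differed by 0.20 and 0.13, and their r over the 8 arrays was -0.48 and 0.11. Stk32a was well above background on 2 of 4 Klf4 arrays and F2 on 3 of 4. Zfp148 was read on the brightest of 6 kept probes and Sqstm1 on that of 3. By either measure the genes named are the highest of 13501 over 8 arrays. How often such r values arise by chance was not tested. Of the tested relatives of Ntm, r over the 8 arrays was 0.59 for Negr1, 0.45 for Iglon5 and 0.26 for Lsamp, and within groups it was 0.08, -0.16 and -0.23 in the same order. In all, 135 genes had an r over 0.9.

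A list of other neural adhesion molecules of the immunoglobulin superfamily set the family beside its nearest kin. Of its 34 genes, 26 passed the filter, 4 rose and 1 fell in Klf4 cells, with a median difference of -0.02. That is 15.4% higher and 3.85% lower, against 3.21% and 0.47% over all features. This list and those that follow were chosen with earlier results of these data known. Their shares are therefore a description, and no test of a list was made. Mcam, an adhesion molecule of vessels and neural crest, rose by 1.74 (SE 0.15, adjusted p = 0.000414 in limma), at 3.58 to 3.80 in Klf4 cells and 1.70 to 2.18 in control cells. Nfasc, a neurofascin of axon initial segments and nodes, rose by 1.62 on the brighter of its 2 probes and showed 0.37 on the other, with an adjusted p of 0.519 there. L1cam, an axonal adhesion molecule, rose by 1.16 (SE 0.22, adjusted p = 0.0256 in limma). Nectin1, of adherens junctions, rose by 0.69 on 1 of its 3 probes, and the others showed -0.02 and 0.37. Of the 24 alternatives, Mcam passed under all, Nfasc under 22, L1cam under 14 and Nectin1 under 11. Cadm2, a synaptic cell adhesion molecule, fell by 0.90 (SE 0.20), with an adjusted p of 0.0495 in limma, and passed under 7 of 24 alternatives to the processing. None of the 5 contactins that passed the filter, which like the IgLONs are GPI-anchored immunoglobulin proteins, passed the test. Their differences ran from -0.31 for Cntn3 to 0.52 for Cntn2.

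A list of GPI-anchored surface proteins of neurons, which shares 8 genes with the adhesion list, held 30 genes that passed the filter of its 41. There 2 rose and 1 fell, with a median difference of 0.11. These were 6.67% and 3.33% of the 30, against 3.21% higher and 0.47% lower over all features. Cdh13, the GPI-anchored T-cadherin, rose by 2.99 (SE 0.51, adjusted p = 0.0147 in limma), at -3.83 to -1.28 in Klf4 cells and -6.07 to -4.86 in control cells. It was well above background on 3 of 4 control arrays, and with the normexp background correction its difference was 1.53, with an adjusted p of 0.0633 in limma. Efna1, a ligand of Eph receptors, rose by 1.15 (SE 0.25, adjusted p = 0.0406 in limma). Omg, a myelin-associated inhibitor of axon growth, fell by 0.95 (SE 0.19, adjusted p = 0.0322 in limma). Cdh13 passed under 19 of 23 alternatives, Efna1 under 12 of 24 and Omg under 14 of 24.

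A list of members of the metalloproteinase families, metalloproteinase inhibitors and the fibroblast growth factor receptors gave 21 genes that passed the filter of 25. Of these 5 rose and none fell, with a median difference of 0.05, and 1 of the 5, Mmp9, passed the filter only through its Klf4 arrays. The 5 were 23.8% of the 21, against 3.21% higher and 0.47% lower over all features. Adam15, a membrane metalloproteinase, rose by 2.91 (SE 0.29, adjusted p = 0.000819 in limma) on the brighter of its 2 probes and by 1.68 on the other. The receptor Fgfr3 rose by 2.06 (SE 0.26, adjusted p = 0.0028 in limma), at -0.45 to 0.71 in Klf4 cells and -2.00 to -1.61 in control cells. The metalloproteinase inhibitor Timp2 rose by 2.01 (SE 0.19, adjusted p = 0.000625 in limma). Fgfr2 rose by 2.18 on the brighter of its 2 probes and showed 0.01 on the other, with an adjusted p of 0.997 there. Mmp9, a secreted gelatinase, was well above background on 4 of 4 Klf4 arrays and 1 of 4 control arrays. Its difference was 2.23 (adjusted p = 0.00581 in limma), against 0.77 with the normexp background correction (adjusted p = 0.0911 in limma), so its size depends on how background is treated. Adam15, Fgfr3 and Timp2 passed under all 24 alternatives, Mmp9 under 22 of 23 and Fgfr2 under 14 of 24. Adam10 and Adam17, the best studied sheddases, differed by -0.18 (adjusted p = 0.878 in limma) and -0.03 (adjusted p = 0.98 in limma).

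The enzymes that build and attach the GPI anchor gave 24 genes that passed the filter of 28. None passed at an adjusted p of 0.05 in limma, and none had an unadjusted p under 0.05. The lowest unadjusted p values were those of Pigs, a subunit of the GPI transamidase, at a difference of -0.28 (SE 0.13), and of Dpm1, a subunit of the mannosyl donor synthase, at -0.63 (SE 0.34). The list's median was -0.03, against -0.07 over all features.

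**Figure D3:**
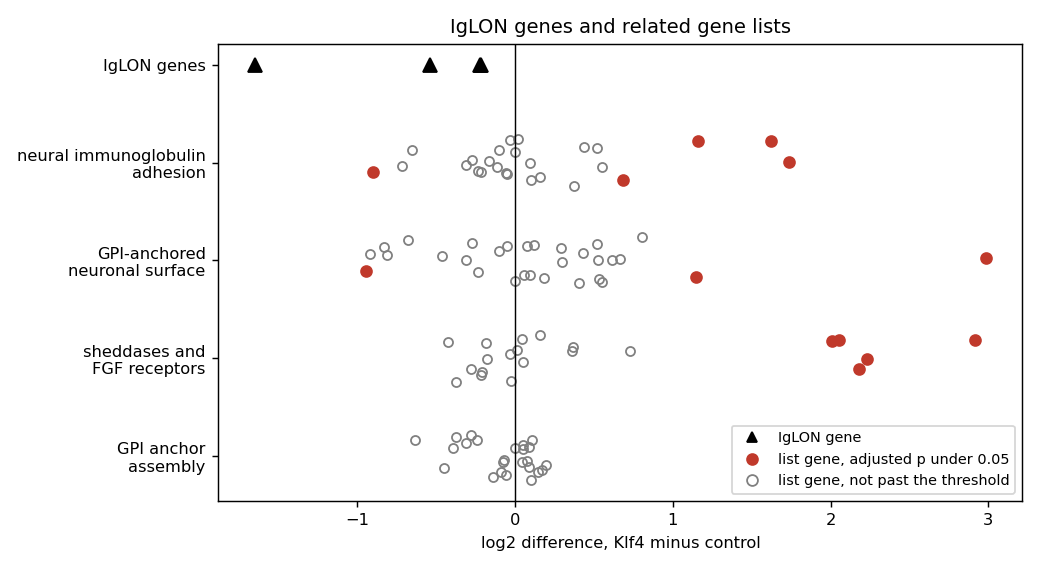
Log2 difference, Klf4 minus control, of the 4 IgLON genes that passed the dim filter (triangles, of which Ntm was not tested) and of the genes of 4 related lists (circles, filled where the limma adjusted p was under 0.05, n = 4 per group). The filled circles lie between -0.95 and 2.99, to the right of Ntm at -1.65, and the GPI anchor assembly list has no filled circle.

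On its chromosome, Ntm stands between Opcml and Snx19. Lsamp stands between Gap43, a growth cone protein, and Igsf11, an immunoglobulin superfamily adhesion gene. Gap43, which is also among the ganglion cell markers, rose by 1.09 (SE 0.22, adjusted p = 0.0298 in limma), and the Igsf11 difference was 0.12, with an adjusted p of 0.789 in limma.

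Each array carried 58717 gene spots, of which 71.9% (Klf4 sample 4) to 86.5% (Klf4 sample 2) were well above background and none was saturated. The 75th percentile of gene probes was 787 to 1564 in Klf4 samples and 732 to 1718 in control samples, with both arrays numbered 5 lowest. The deposited slide positions put Klf4 samples in columns 2 and 4 and control samples in columns 1 and 3, so column and group cannot be told apart. The rat Klf4 probe differed by 0.27 (SE 0.46, adjusted p = 0.916 in limma), and the sources used here do not say whether it matches the insert of the plasmid. Photoreceptor markers that passed the filter, 11 of them, included 3 that were lower (Rbp3, Crx and Rxrg) and none higher. Beside this and the marker counts below, the shares over all features were 3.21% higher and 0.47% lower. The log2 of the summed signal of the photoreceptor list, called its sum below, was 6.95 to 8.01 in Klf4 samples and 7.58 to 7.94 in control samples. Of the 8 ganglion cell markers that passed the filter 3 rose, and the sum of the list was 2.85 to 4.10 in Klf4 samples and 0.82 to 1.62 in control samples, with no overlap. Bipolar cell markers included 1 that was lower of 6, and their sum was 2.75 to 3.02 in Klf4 samples and 3.36 to 3.59 in control samples. The 1 was Lhx4, at -0.91, and the others did not pass the test, at -0.22 to -0.13. The mean log2 signal of the bipolar list overlapped, at -1.96 to -1.49 in Klf4 samples and -2.10 to -1.56 in control samples. Pericyte and fibroblast markers had a sum of 2.88 to 3.19 in Klf4 samples and 1.96 to 2.26 in control samples. Of their 4 that passed the filter only Col1a1 rose, by 1.36. The other 3 did not pass the test, at -0.86 to -0.17, and the median of the 4 was -0.32. The mean log2 signal of the list overlapped between groups. All 12 progenitor and Müller glia markers were well above background on all 8 arrays, while Ptprc of immune cells, Lum of fibroblasts, Tyr of pigment epithelium and Hbb of red blood cells were on none. Of the other lists, 2 of 5 endothelial markers were higher. So were 1 of 12 progenitor and Müller glia markers (Vim, 1.14) and 1 of 12 amacrine and horizontal cell markers (Ptf1a, 0.68). The same held for 1 of 6 microglial markers (C1qb, 1.04) and 1 of 4 astrocyte markers (S100b, 3.80). The median differences of these 4 lists were 0.12, -0.22, 0.07 and -0.24 in the same order. The sums of the other lists overlapped between groups. The mean log2 signal of the endothelial list did not overlap, at -2.35 to -1.71 in Klf4 samples and -3.14 to -2.67 in control samples. Tek rose by 2.38 and Esam by 3.35, and the other 3 endothelial markers that passed the filter lay between -0.02 and 0.03. The part of these shifts in the lower Ntm signal was not tested.

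**Figure D4:**
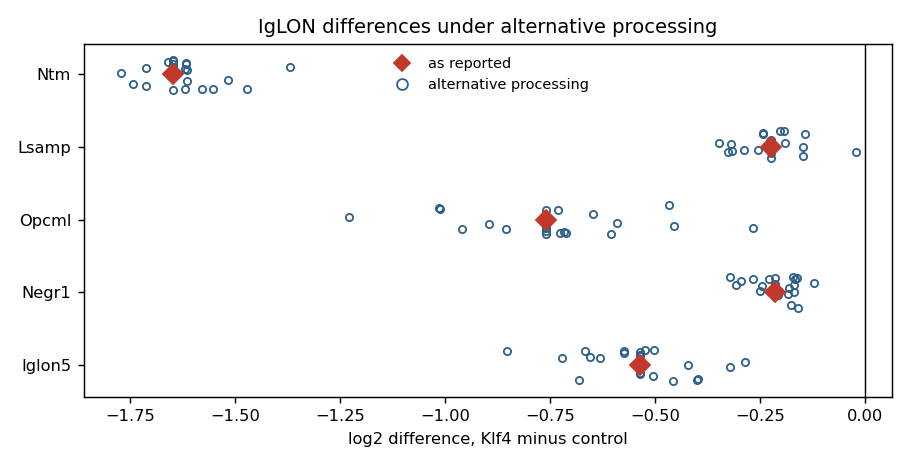
Log2 difference, Klf4 minus control, of each IgLON gene as reported (diamonds) and under the alternatives to the processing (circles, 24 for each gene except Opcml with 22). Every point lies below 0, with Ntm between -1.77 and -1.37 and Lsamp, Negr1 and Iglon5 between -0.85 and -0.02. Ntm was selected as a stable fall, so its range is a description only.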

How the data were processed

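RNA of GFP-positive retinal cells was measured on Agilent single-colour Cy3 arrays, 4 Klf4 and 4 control. Per the file headers, spots were extracted with Feature Extraction 10.7.3.1 for the rn4 build. That software had subtracted background from the deposited intensity values and detrended them, with no scaling between arrays. The flags, unit other, are deposited by the same software. The authors also deposited a log2 table of 45735 rows. The sources used here do not say how. Its columns have a median of 7.54 and each correlates best with its own array, so its scale is log2 with no centring of genes and the direction of the signals. No column of values was left unmapped (0).

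Outlier spots were left out, log2 spots of a probe were averaged and the 75th percentile of gene probes was subtracted per array. Probes passed the filter if 3 or more arrays of either group, of 4 each, read them well above background. The brightest kept probe stood for a gene. limma 3.58.1 (R 4.3.3) compared Klf4 with control, with Benjamini-Hochberg adjustment at 0.05 over all 29995 features. Figures used matplotlib 3.10.9. Of the gene probes, 21109 had 1 RefSeq symbol. The other 24489 were given none, which would include any probe whose transcript has more than 1 symbol. The pipeline was tested on simulated data. Normexp used the median foreground signal, as the files used here have no mean signal column. Promoters came from RefSeq, GRCr8. Probe sequences and proteins were not used here. Precision is limited by the number of arrays.

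The family, the lists and the tests were chosen with earlier results of these data known. By rule the text names the members with all their probes, the 5 genes most like Ntm by each measure, and of each list up to 4 genes past the threshold in each direction, or 2 where none passed. Timp2 was the fifth to rise in its list. It, Adam10, Adam17, the contactins Cntn2 and Cntn3, Gap43 and the marker genes were named after their values were seen. Same-numbered samples deviated together in 3 of 4 pairs (r 0.06 to 0.55, needing over 0.1 in every pair), so numbers were not taken to pair the samples. The alternatives comprised scaling, background, dim filter, probe choice, blocks, array weights, the authors' log2 table and leaving out arrays. Scaling to the 75th percentile over spots was chosen after seeing the data.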

Additional observations from a re-analysis of the deposited data

Results flagged for a closer look

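In 2 of the 38 groups of 4 arrays tested, 1 array stood far from the others, as chance flags about 1 in 20 groups. Klf4 sample 4 read -4.104 on Negr1 probe 1, where the gap to the nearest other Klf4 array was 0.933 of the group's range. That array also had the lowest share of spots well above background, 71.9%. The summed bipolar cell markers were 2.747 in Klf4 sample 5, with a gap of 0.97 of the range. None of the Ntm, Lsamp, Opcml or Iglon5 groups was flagged.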

How the results depend on the processing

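Over 24 alternatives the Ntm difference ran from -1.77 to -1.37, the last with array weights. Leaving out 1 array in turn gave -1.77 to -1.52. Ntm was selected as a stable fall in this comparison, so these ranges describe it and lend it no support. Lsamp (-0.35 to -0.02), Negr1 (-0.32 to -0.12) and Iglon5 (-0.85 to -0.29) kept their direction and did not pass in any of the 24, with adjusted p values of 0.225 or more. The lowest Lsamp size, -0.02, was that without Klf4 sample 5. Opcml ran from -1.23 to -0.27 over 22, as it has no value with the filter of all 8 arrays or with array weights. In 6 of 8 samples the deviations from the group means correlated best with those of the other group's sample of the same number, a hint from the data, and same-numbered arrays lie side by side on the slide. With the replicate block, Iglon5 had an adjusted p of 0.445, all features gave 842 higher and 101 lower calls, Nectin1 (adjusted p = 0.0596) and Cadm2 (adjusted p = 0.0628) did not pass, and no other named list gene lost its call.

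Small list counts moved. Higher adhesion genes, 4 as reported, were 1 with no scaling, 1 in the first scan alone and 2 with the percentile over spots, and 2 to 4 on leaving out 1 array. Lower adhesion genes, 1 as reported, were 2 with quantile normalisation, the authors' log2 table, the filter of all 8 arrays and array weights. They were 0 with no scaling, no dim filter, every probe on its own, the replicate block, the scan block, the slide row block, the first scan alone, without both arrays numbered 4, with the percentile over spots, and on leaving out any 1 array (0 to 0). Higher GPI-anchored genes, 2 as reported, were 4 with quantile normalisation and the authors' table, and 7 with array weights. They were 1 with no scaling, no dim filter, the slide row block, without both arrays numbered 4 and with the percentile over spots, and 0 to 3 on leaving out 1 array. Lower GPI-anchored genes, 1 as reported, were 0 with the array median, no scaling and no dim filter, 3 with array weights, and 0 to 3 on leaving out 1 array. Lower sheddase and receptor genes, 0 as reported, were 2 with array weights. The cause was not tested. Over all features 963 were higher and 141 lower, against 526 and 2 with no scaling, 633 and 47 in the first scan alone, 1847 and 1268 with array weights, and lower counts of 93 with the array median, 70 with no dim filter, 255 with the scan block and 32 to 406 on leaving out 1 array, the last without Klf4 sample 4. Of the features called in either direction, 87.2% were higher, against 99.6% with no scaling and 59.3% with array weights. Without Klf4 sample 2, 604 were higher. Dim probes such as Opcml are limited by their signal over background.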
